A study of Mus musculus with 2 samples.

Results

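Conventional dendritic cells of J558 allografts were taken as the cells that met a rule on UMI counts (unique molecular identifiers, which count single transcripts). A cell barcode had to hold over 2000 genes and under 15% mitochondrial UMIs, at least 3 UMIs of Xcr1, Clec9a, Cd209a and Flt3 together and at least 10 UMIs of H2-Aa. It also had to hold fewer than 5 UMIs of the 3 C1q genes together, fewer than 2 of Fscn1, at most 1 of the 3 Cd3 genes together and fewer than 3 of Trap1a. The rule was met by 97 of 6929 kept cells, of which 18 came from the vehicle-treated and 79 from the TAK-931-treated allograft. Cells with at least 2 UMIs of Xcr1 and Clec9a together and fewer than 2 of Cd209a were called type 1, and cells with at least 2 of Cd209a and fewer than 2 of Xcr1 and Clec9a were called type 2. The rule used measured counts, so the levels of its genes are given as a description.

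J558 is a BALB/c plasmacytoma, a tumour of antibody-secreting cells, and was inoculated subcutaneously into female BALB/c mice. TAK-931 blocks CDC7, the kinase that starts DNA replication origins. The treated mice took it in daily oral doses of 60 mg/kg over 6 days, and the control mice received 0.5% methylcellulose on the same schedule. A single allograft per group went into single-cell RNA sequencing, so differences between treatments and between animals cannot be told apart, no p-value is given, and all intervals are 95% intervals that cover counting error only.

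Conventional dendritic cells take up antigen and show it to T cells on MHC class I and class II molecules. Type 1 cells, which depend on Batf3 and Irf8, are known for presenting antigen of dying cells to CD8 T cells, and type 2 cells, which carry Cd209a, Sirpa and Clec10a, are known for presentation to CD4 T cells. Type I interferon and interferon gamma both act on these cells and raise antiviral genes, T cell-attracting chemokines and the class I pathway.

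Promoter sequence of interferon-induced list genes is shown here because the interferon lists are central to the comparison of the libraries. RefSeq promoters (GRCm38.p6, 250 bases before to 50 after the start) were searched for the core of the interferon-stimulated response element, GAAANNGAAA or TTTCNNTTTC on the other strand, and for the gamma-activated site, TTCNNNGAA, which reads the same on both strands. The first motif was in 6 of 12 type I interferon-stimulated list genes with a promoter, 7 of 10 interferon gamma-induced genes, 4 of 18 MHC class I genes and 1 of 8 MHC class II genes, against 3.99% of 27025 genes. The second was in 1, 4, 2 and 1 of these genes, against 9.55%. A match is a description of letters in this window. The lines below run 5′ to 3′ on the strand of the gene, with 1 match of the motif in capitals, the response element core in the first 7 and the gamma-activated site in the last. The promoters of Isg15, Ifit3 and Irgm1 held 3, 2 and 2 matches of the core, of which the others are left in lower case where they fall within the line. They lie at chr4:156200850-156200909 on the minus strand (Isg15, a secreted ubiquitin-like protein), chr12:26456538-26456597 on the minus strand (Rsad2, the antiviral enzyme viperin), chr19:34583382-34583441 on the plus strand (Ifit3, an antiviral RNA-binding factor), chr11:48871421-48871469 on the minus strand (Irgm1, an immunity-related GTPase), chr11:58199497-58199555 on the plus strand (Igtp, another such GTPase), chr3:142620579-142620638 on the plus strand (Gbp2, a guanylate-binding protein), chr2:122147523-122147582 on the plus strand (B2m, the class I light chain) and chr11:53769899-53769957 on the plus strand (Irf1, a transcription factor of the interferon gamma response).
Isg15: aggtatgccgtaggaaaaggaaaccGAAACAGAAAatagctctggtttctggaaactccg
Rsad2: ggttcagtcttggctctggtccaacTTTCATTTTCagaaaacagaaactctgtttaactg
Ifit3: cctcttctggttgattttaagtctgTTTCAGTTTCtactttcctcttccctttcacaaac
Irgm1: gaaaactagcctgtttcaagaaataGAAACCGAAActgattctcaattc
Igtp: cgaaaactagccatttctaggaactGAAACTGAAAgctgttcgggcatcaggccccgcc
Gbp2: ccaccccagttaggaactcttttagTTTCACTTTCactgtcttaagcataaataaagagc
B2m: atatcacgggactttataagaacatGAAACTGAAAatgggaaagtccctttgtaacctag
Irf1: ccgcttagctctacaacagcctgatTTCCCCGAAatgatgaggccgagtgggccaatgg

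A total of 144767193 UMIs was counted in 4565 barcodes of the vehicle library, where 3441 cells were kept, and 77369283 UMIs in 6558 barcodes after TAK-931, where 3488 cells were kept. Vehicle dendritic cells held 7074 to 25917 UMIs (median 12235) and TAK-931 dendritic cells 8530 to 56934 (median 16112), with medians of 2809 and 3210 genes. Type 1 cells were deeper than type 2 cells in both libraries, with medians of 15739 against 11472 UMIs in the vehicle and 26728 against 14586 in the TAK-931 library. Of 8 barcodes that occurred in both libraries, 1 was a dendritic cell, a type 2 cell with 14212 UMIs in the TAK-931 library and 2851 in the vehicle library, where it was not kept.

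The marker genes varied widely between cells. H2-Aa, an alpha chain of MHC class II, had 28 to 157 UMIs per cell (median 107.5) in the vehicle and 10 to 552 (median 192) in the TAK-931 cells. Xcr1, the chemokine receptor that marks type 1 cells, had 20 UMIs in 6 of the 7 vehicle type 1 cells and 116 UMIs in 21 of the 23 TAK-931 type 1 cells. Clec9a, a receptor for dead cells, had 17 UMIs in 6 vehicle and 93 UMIs in 19 TAK-931 type 1 cells. Cd209a, a lectin of type 2 cells, ran from 2 to 19 UMIs in both the 11 vehicle (median 4) and the 41 TAK-931 type 2 cells (median 6). Flt3, the receptor for the growth factor that sustains dendritic cells, had a UMI in 13 of the 18 vehicle cells and in 50 of the 79 cells after TAK-931. A further 3 TAK-931 cells carried both sets of type markers and 12 carried neither, while all vehicle cells were typed.

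**Figure D1:**
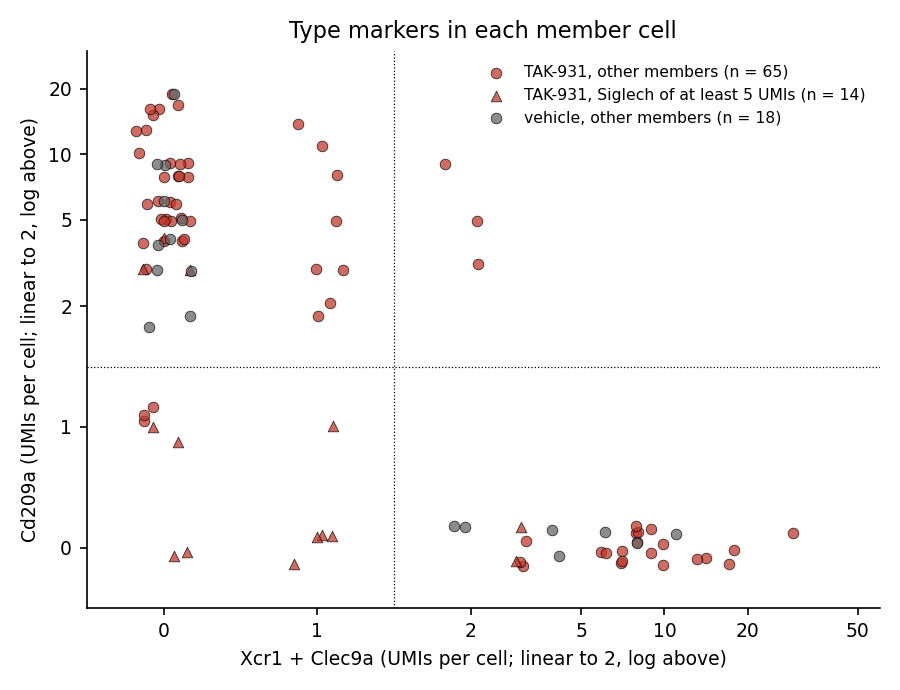
Xcr1 and Clec9a UMIs together (horizontal axis) against Cd209a UMIs (vertical axis) in each dendritic cell, with both axes linear up to 2 and logarithmic above and points jittered. Dotted lines mark the limit of 2 UMIs, and the cells with at least 5 Siglech UMIs (triangles) lie mostly at the lower left, where neither type marker reached it.

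Many cells lay near the marker limit. Of the dendritic cells, 2 vehicle and 11 TAK-931 cells held exactly 3 UMIs of the 4 markers together, and 1 vehicle and 25 TAK-931 cells just outside it held 2 and met all other limits. At the C1q limit 3 TAK-931 cells held 4 UMIs and 6 cells outside it held 5, with none of either in the vehicle. At the H2-Aa limit 2 TAK-931 cells held 10 to 14 UMIs and no otherwise matching cell held 5 to 9.

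In 14 TAK-931 cells the data went against the label. These cells held 5 to 29 UMIs (median 19) of Siglech, a lectin of plasmacytoid dendritic cells, and the limit of 5 was chosen after the values were seen. Of these 14 cells, 9 carried neither type marker, 2 were type 1 and 3 were type 2, and none of the 18 vehicle cells reached the limit, which allows a share of up to 18.5%. All 8 genes of the plasmacytoid marker list were found in them, at 103 to 227 UMIs per cell and 13550 CPM together (counts per 1000000 UMIs of the summed cells). Siglech, which chose the cells and is on the list, made up 1274 CPM of this. The list stood at 420.6 CPM in the other 65 TAK-931 and 401.2 CPM in the vehicle cells. Ccr9, a gut-homing receptor, stood at 3385 CPM against 15.2 in the other TAK-931 cells, and Cd8b1 at 369.8 against 2.29. Spib, a transcription factor of plasmacytoid cells, stood at 970.8 CPM against 0 UMIs, at least 425-fold higher (3 counts are taken as the limit that a sum of 0 allows, here and below), Klk1 at 1233 CPM against 0, at least 539-fold, and Cox6a2 at 672.9 CPM against 0, at least 294-fold. MHC class II list genes made up a median of 99.98 UMIs per 10000 in these cells and 370.4 in the other TAK-931 cells. All 14 come from 1 library, so values below are given with them and then without them, and single genes without them unless stated.

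Dendritic cells took 0.523% of kept vehicle cells (exact Clopper-Pearson interval 0.310 to 0.826) and 2.27% of kept TAK-931 cells (1.80 to 2.82), a difference of 1.74 percentage points (Newcombe interval 1.205 to 2.32). Without the 14 Siglech-positive cells the TAK-931 share was 1.86% and the difference 1.34 points (0.840 to 1.88). Over kept cells with fewer than 3 UMIs of Trap1a, a tumour antigen gene of J558 cells, the order turned round. The share was then 4.30% of 419 vehicle cells (2.57 to 6.71) and 2.35% of 3364 TAK-931 cells (1.86 to 2.92), a difference of -1.95 points (-4.38 to -0.286), or -2.36 points without the Siglech-positive cells. The larger share of all kept cells went with a smaller share of the cells low in Trap1a. Among typed cells type 1 made up 38.9% of 18 vehicle cells (17.3 to 64.3) and 35.9% of 64 TAK-931 cells (24.3 to 48.9), which cannot be told apart with so few cells (a difference of -2.95 points, -27.8 to 19.3).

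Gene levels in the dendritic cells of the 2 libraries were compared to ask how the cells differed after TAK-931. Without the Siglech-positive cells, and with genes at 0 in the vehicle set to their bound, 9 of 16 interferon gamma-induced, 6 of 11 type I interferon-stimulated, 10 of 20 MHC class I and 7 of 24 G2/M list genes were higher in the TAK-931 cells, against 0 of 11 MHC class II and 2 of 23 S phase genes. Genes at 0 in the vehicle were measured only through their TAK-931 UMIs. The G2/M median over all cells fell to 0.34 when the deepest cells were left out. A gene counted as higher or lower when the ratio of its CPM reached 2-fold in either direction with at least 50 UMIs over both libraries, and at least 10 UMIs for genes of the fixed lists. By the first limit 422 of 3803 genes were higher (11.1%) and 119 lower (3.13%). Without the Siglech-positive cells, against the same vehicle cells, 307 of 3386 were higher (9.07%) and 119 lower (3.51%). By the list limit the shares were 19.1% higher and 8.20% lower of 8013 genes over all cells, and 15.6% and 10.1% of 7510 genes without the Siglech-positive cells, with median log2 ratios over all genes of 0.07 and -0.01.

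Of the interferon gamma-induced list, 10 of 16 measured genes were higher and 0 lower, both over all cells (median log2 ratio 1.63) and without the Siglech-positive cells (1.68). With the gene at 0 in the vehicle set to its bound, 9 were higher and the medians were 1.42 and 1.49. Their summed level went from 506.8 to 1681 CPM, a log2 ratio of 1.73 (1.46 to 2.01). Per cell the list took 0 to 42.0 UMIs per 10000 (median 1.49) in the vehicle, with 4 of 18 cells at 0, and 2.10 to 119.7 (median 12.0) in the TAK-931 library. The ranges overlapped. The highest vehicle cell, a type 2 cell with 12608 UMIs, reached 42.0 and the next 18.75, above the TAK-931 median. Without that cell the median over all cells was 1.92. A vehicle cell left out for its high level raises a ratio by that choice. Such values, here and below, show only how much rests on that cell.

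Cxcl9, a chemokine that draws activated T cells, had 14 UMIs in 4 of 18 vehicle cells and 662 UMIs in 42 of 65 TAK-931 cells. That was 59.1 against 504.4 CPM, a log2 ratio of 3.09 (2.34 to 3.97), or 3.93 without a vehicle cell that held 7 of the 14 UMIs, and up to 75 UMIs lay in a TAK-931 cell. In cells thinned to 5000 UMIs it was found in 16.7% and 47.7% of cells, against 0 of 22 vehicle and 6.81% of 676 TAK-931 T cells, which should lack it. Irf1 went from 29.6 to 101.3 CPM (1.78, 0.69 to 3.12), but 86% of its 7 vehicle UMIs lay in 1 cell. Among the GTPases that act on intracellular microbes, Irgm1 went from 33.8 to 159 CPM (2.24, 1.23 to 3.47), with 5 of its 8 vehicle UMIs in 1 cell and 1.60 to 3.59 over the alternatives, and Ifi47 from 25.3 to 155 CPM (2.61, 1.46 to 4.07). Igtp had 1 UMI in the vehicle and 95 UMIs in 39 TAK-931 cells (4.10, 1.59 to 9.42). Members past 2-fold also included Nlrc5, the activator of class I genes, at 2.05. Socs1, a brake on this signal, and Gbp5 stayed near level at 0.11 and 0.15.

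Of the type I interferon-stimulated list, 9 of 11 measured genes were higher and 0 lower over all cells (median 2.21) and without the Siglech-positive cells (2.11). With genes at 0 in the vehicle set to their bound, 6 were higher and the medians were 1.05 and 1.20. The summed level went from 257.6 to 884.6 CPM (1.78, 1.41 to 2.18). Per cell it took 0 to 14.3 UMIs per 10000 (median 0.875) in the vehicle, with 6 of 18 cells at 0, and 0.523 to 40.8 (median 7.22) in the TAK-931 library, where no cell was at 0. Isg15 went from 88.7 to 203.4 CPM (1.20, 0.56 to 1.91). Irf7, the factor that amplifies type I interferon, went from 54.9 to 205.7 CPM (1.91, 1.11 to 2.83). It had a UMI in 8 of 18 and 50 of 65 cells, or in 33.3% and 49.2% of cells thinned to 5000 UMIs. Zbp1, a sensor of nucleic acids in Z form, went from 21.1 to 120.4 CPM (2.51, 1.26 to 4.15) and Oasl1 from 12.7 to 80.8 CPM (2.67, 1.09 to 4.97). Ifih1, the RNA sensor MDA5, had 0 and 25 UMIs, at least 1.50-fold higher.

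Ly6a, a surface protein that interferons induce, was higher in type 2 cells and in all cells together, and its TAK-931 level was 374.9 CPM in type 1 and 668.6 in type 2 cells without the Siglech-positive cells, and 1628 in the Siglech-positive cells. It had 2 UMIs in 1 of 18 vehicle cells and 1000 UMIs in 58 of 79 TAK-931 cells, 8.45 against 663.5 CPM (6.30, 4.44 to 9.34), or 520.4 CPM in 45 of 65 cells without the Siglech-positive cells. T cells of the same libraries held 146.9 and 347.8 CPM and macrophages 9.15 and 533.4 CPM, so that the vehicle level in dendritic cells was near that of macrophages and below that of T cells.

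**Figure D2:**
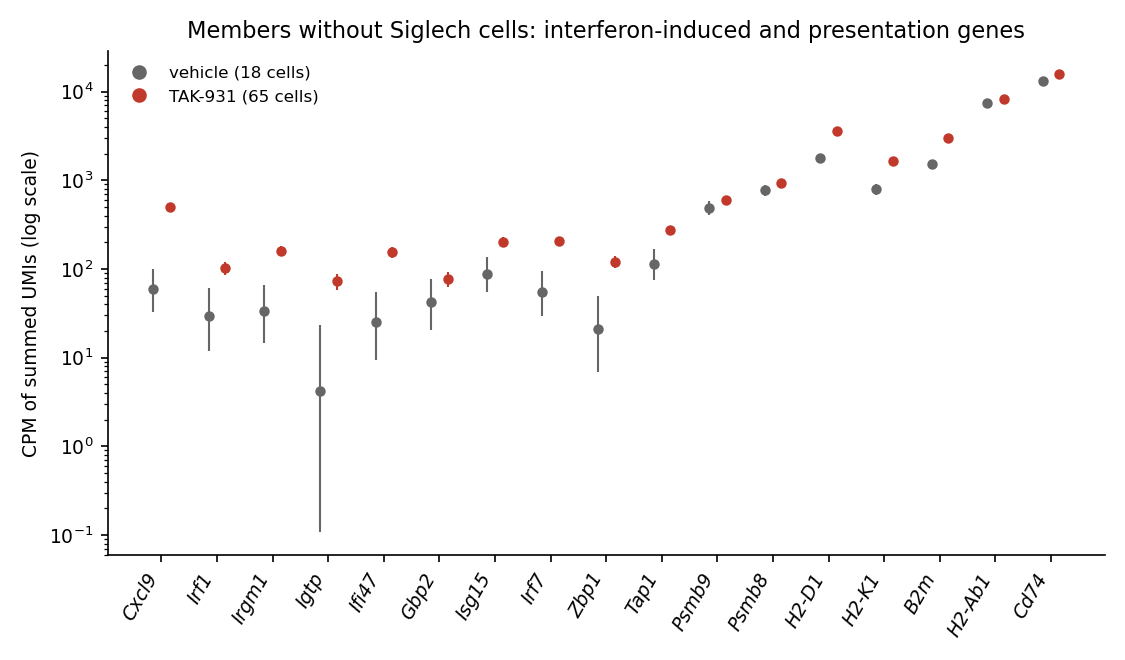
CPM on a log axis for 17 interferon-induced and antigen presentation genes in the 18 vehicle cells (grey) and the 65 TAK-931 cells without Siglech-positive cells (red), with exact Poisson 95% intervals of the summed UMIs as bars. Cxcl9, Irgm1, Igtp and Zbp1 are far apart between the libraries, H2-D1, H2-K1 and B2m differ by about the same step, and H2-Ab1 and Cd74 nearly coincide.

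Of 20 measured genes of MHC class I presentation, 10 were higher and 0 lower, with a median of 1.02 over all cells and 1.01 without the Siglech-positive cells. Per cell the list took 48.8 to 107.9 UMIs per 10000 (median 75.5) in the vehicle and 72.1 to 175.9 (median 124.7) in the TAK-931 library. The heavy chain H2-D1 had 5 to 50 UMIs per vehicle cell (median 21) and 23 to 224 per TAK-931 cell (median 63), and went from 1761 to 3622 CPM (1.04, 0.90 to 1.19). H2-K1 went from 794 to 1642 CPM (1.05, 0.83 to 1.27). B2m, at 1529 and 3027 CPM, stayed just under the limit at 0.99 (0.83 to 1.15). Tap1, which carries peptides into the endoplasmic reticulum, went from 114 to 272 CPM (1.25, 0.69 to 1.88). The nonclassical genes H2-T22 (1.92), H2-Q4 (1.88) and H2-T23 (1.10) were also past 2-fold. The immunoproteasome genes Psmb8 (0.27) and Psmb9 (0.31), Tap2 (0.41) and the chaperones Calr (-0.11) and Pdia3 (-0.38) were not. BALB/c class I and class II alleles differ from the C57BL/6-based mouse reference, which can lower the counts of these genes in both libraries.

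MHC class II presentation genes had 0 of 11 higher and 0 lower, with a median of 0.08 over all cells and 0.23 without the Siglech-positive cells. Their summed level was 30805 CPM in the vehicle and 35425 CPM in the TAK-931 cells without Siglech-positive cells (0.20, 0.17 to 0.24). Cd74, the invariant chain, had a log2 ratio of 0.24 (0.19 to 0.30), H2-Ab1 went from 7340 to 8155 CPM (0.15), and Ciita, the master regulator of class II genes, gave 0.24 (-0.52 to 1.10). H2-DMb2, a subunit of the peptide exchanger, went down from 279 to 168.4 CPM (-0.73, -1.13 to -0.31). In macrophages (C1q genes of at least 20 UMIs, 122 and 1156 cells) the same list had 6 of 11 genes higher and a median of 1.01, where 16.6% of 13236 genes were higher and 9.40% lower. There H2-Ab1 went from 2500 to 6462 CPM and Cd74 from 6131 to 12854 CPM. Summed class II levels were 15101 CPM in vehicle and 30660 CPM in TAK-931 macrophages. The dendritic cells were chosen on H2-Aa and the macrophages on C1q genes, so the levels of the 2 cell groups are not compared, and the difference between the 2 changes was not tested.

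Chemokine genes had 9 of 15 higher and 3 lower over all cells (median 1.18), and 9 and 2 without the Siglech-positive cells (1.38), but several rested on few cells. Of these genes 5 were at 0 in the vehicle, and at their bound 8 were higher, with medians of 1.03 and 1.05. Ccl2, which draws monocytes, had 0 vehicle UMIs and 95 UMIs in 17 TAK-931 cells (72.4 CPM, at least 5.71-fold higher), and T cells held 228 and 83.1 CPM of it. Ccl8 had 0 and 70 UMIs, at least 4.21-fold higher, and its share of TAK-931 cells with a UMI (36 of 65) was not above that in T cells (382 of 676), so no difference is read from it. Ccl3 had 0 and 54 UMIs and Ccl5 2 and 132, but 1 TAK-931 cell held 59% and 54% of them. Cxcl10, the other interferon-induced T cell attractant, went from 127 to 209.5 CPM (0.73, 0.18 to 1.32), and the vehicle cell rich in interferon-induced genes held 90% of its vehicle UMIs, without which the ratio was 3.97. Cxcl2, which draws neutrophils, went from 549 to 304.8 CPM (-0.85, -1.14 to -0.55), but 1 type 2 cell held 52.3% of its vehicle UMIs, and without that cell the vehicle level was 278.1 CPM and the log2 ratio 0.13. Ccl24 went from 17 UMIs in 1 vehicle cell to 0. The chemokine median was 2.21 over all cells without the vehicle cell rich in interferon-induced genes, and 0.69 without 3 TAK-931 cells, 2 that each held at least 50% of the UMIs of 5 or 7 list genes over the cells without Siglech, and 1 type 1 cell that held as much of 20 list genes among type 1 cells. In type 2 cells without the Siglech-positive ones it was 0.38.

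Chemokine receptors had 4 of 8 genes higher and 1 lower over all cells, and 2 of 7 and 1 without the Siglech-positive cells. Of the 8 genes 1 was at 0 in the vehicle, and at its bound 3 were higher over all cells. Ccr7, which takes dendritic cells to lymph nodes, was found in 3 of the 18 vehicle cells and in 35 of 65 cells after TAK-931. The shares were 11.1% and 32.3% in cells thinned to 5000 UMIs. Ccr7 went from 71.8 to 175.2 CPM (1.29, 0.58 to 2.09). Its ratio moved with the cells taken, as 1 cell held 52.9% of its 17 vehicle UMIs (2.30 without that cell), and over all cells it was 1.16, 0.29 with barcodes of over 1000 genes and 3.30 with at least 5 marker UMIs. Ccr1 went from 110 to 45.7 CPM (-1.26, -1.95 to -0.54). Of the dendritic cell maturation list, 3 of 13 genes were higher and 2 lower over all cells (median 0.50), and 3 of 11 and 2 without the Siglech-positive cells (0.24). Costimulatory and checkpoint ligands had 1 of 13 higher and 1 lower over all cells (median 0.52), and 2 of 12 and 1 without the Siglech-positive cells (0.52). A gene at 0 in the vehicle is among these, and at its bound 0 of 13 (median 0.42) and 1 of 12 (0.43) were higher. Cd80, a ligand of CD28, gave 1.13 (0.03 to 2.49), Cd86 gave 0.60 (0.12 to 1.11) and Cd274, which codes for PD-L1, 0.98 (0.26 to 1.79), with 65% of its vehicle UMIs in 1 cell and 2.41 without it. Icosl had 9 and 15 UMIs (-1.73, -3.02 to -0.36). Of 8 measured cytokines Il12b and Il15 were at 0 in the vehicle with 18 and 12 TAK-931 UMIs, and 12 of the 18 Il12b UMIs lay in 1 type 2 cell. Il1b stood at 346 and 358.1 CPM (0.05, -0.29 to 0.40).

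Of the identity lists, without the Siglech-positive cells, the pan-dendritic list had 3 of 9 higher and 2 lower, the type 1 list 3 of 16 and 2, and the type 2 list 5 of 14 and 1. The type 1 shares were near the 15.6% higher and 10.1% lower of all genes by the list limit. Zbtb46, a factor found in conventional dendritic cells, had 3 UMIs in 3 vehicle cells and 52 UMIs in 28 TAK-931 cells (1.65, 0.02 to 3.97). Itgax, which codes for CD11c, went from 122 to 54.9 CPM (-1.16, -1.80 to -0.48) and Dpp4 from 114 to 43.4 CPM (-1.39, -2.08 to -0.68). Itgae, the CD103 chain of tissue type 1 cells, went from 17 UMIs in 7 of 18 cells to 11 UMIs in 8 of 65 cells (-3.10, -4.34 to -1.92). Id2 went from 431 to 1152 CPM (1.42, 1.13 to 1.72) and Irf8 from 346 to 659 CPM (0.93, 0.60 to 1.27). Of the lectins, Clec10a went from 46.5 to 196.6 CPM in 3 of 18 and 33 of 65 cells (2.08, 1.22 to 3.10, with 63.6% of its 11 vehicle UMIs in 1 cell and 3.44 without it), while its neighbour Mgl2 went from 114 to 26.7 CPM (-2.10, -2.86 to -1.32), with over 50% of its UMIs in 1 cell of each library and -1.01 without that vehicle cell. Reads that fit both of these close paralogs may have been left uncounted.

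Over all genes, the rule on size and spread named Ube2c of the G2/M list, Pnrc2 (3.51), Knstrn (3.39), Txndc16 (3.34), Usp2 (3.31), Ptpn2 (2.97), Phf11d (2.66), Dmkn (2.63) and Samd9l (2.63) as highest, together with Cxcl9. Pnrc2, Knstrn, Txndc16 and Usp2 had 1 vehicle UMI each, so these ratios are loose. Ptpn2 codes for a protein tyrosine phosphatase, and Samd9l is an interferon-induced gene. The lowest by this rule were Mdh2, a mitochondrial malate dehydrogenase (384.3 to 163.8 CPM, -1.23), Rala (-1.10) and Gpx4, which detoxifies lipid peroxides (-1.08). Next came Sri (-1.01), Sdf2l1, Timm10b, Ppt1 (-0.85), Atp5k, Pgls and St8sia4. The rule needs 50 UMIs in the library where a gene is higher, a stricter limit for the vehicle cells (236781 UMIs against 1312523). Itgae, Mgl2, Icosl, Dpp4 and Ccr1 had lower ratios than Mdh2 but too few vehicle UMIs to be named. With the Siglech-positive cells included, Siglech (at least 13.1-fold higher), Klk1 (at least 12.6-fold), Atp1b1 (at least 11.2-fold) and Ccr9 (4.42) joined Ly6a among the highest, and Ccr9 gave -0.47 without them.

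**Figure D3:**
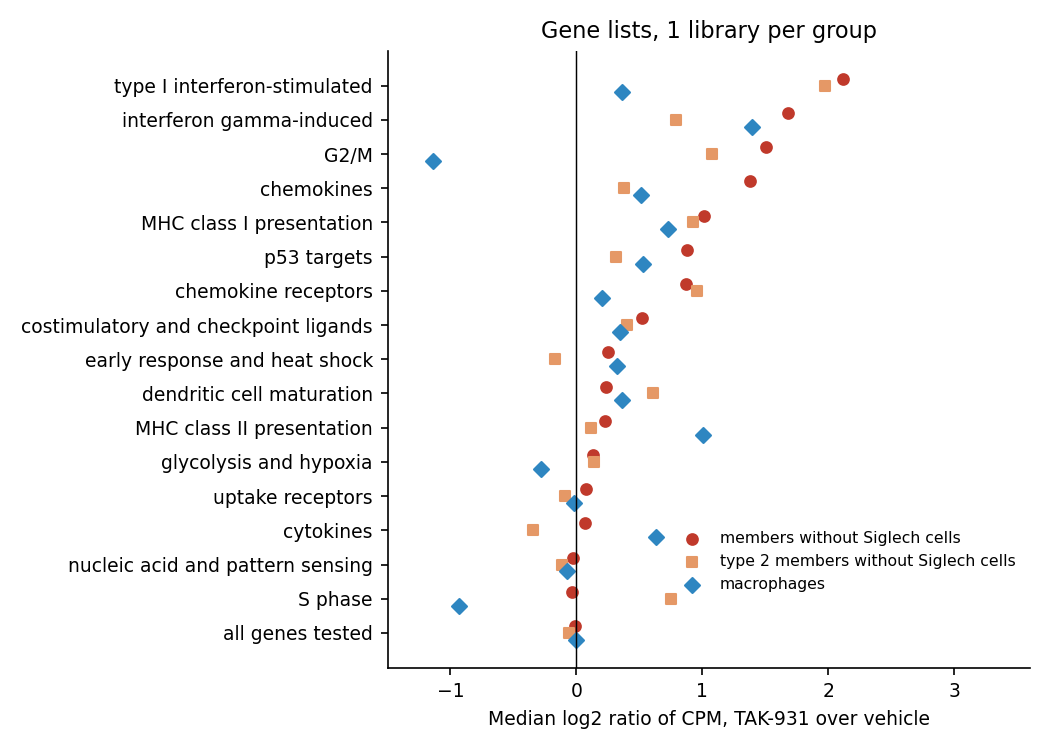
Median log2 ratio of CPM, TAK-931 over vehicle, of each fixed gene list and of all genes tested, in dendritic cells without Siglech-positive cells (circles), type 2 cells without them (squares) and macrophages (diamonds), with 1 library per group and genes at 0 in a library taken with 0.5 UMI added. Type I interferon-stimulated genes lie at 2.11 in dendritic cells (1.20 with genes at 0 set to their bound) and 0.36 in macrophages. MHC class II genes lie at 0.23 and 1.01, and G2/M genes at 1.51 (0.57 at the bound) and -1.14.

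Type 2 cells were compared on their own, with 11 vehicle and 38 TAK-931 cells. By the limit of 50 UMIs 211 of 1917 genes were higher (11.0%) and 84 lower (4.38%), and by the list limit 17.6% and 13.2% of 5649 genes. Type I interferon-stimulated genes had 9 of 11 higher and 0 lower with a median of 1.97, or 1.43 and 6 higher with zero genes at their bound. Interferon gamma-induced genes had 7 of 15 higher and 0 lower with a median of 0.79, below the 1.68 of all cells without Siglech-positive ones. The vehicle cell rich in these genes was a type 2 cell, and Irgm1 had 62.5% and Irf1 85.7% of its vehicle type 2 UMIs in 1 cell. MHC class I genes had 8 of 20 higher (median 0.92) and MHC class II genes a median of 0.12. Cxcl9 went from 50.07 to 687.8 CPM (3.78, 2.65 to 5.23) and Ly6a from 16.7 to 668.6 CPM (5.32, 3.46 to 8.38). The highest by rule were then Ly6a, Senp2 (0 to 52 UMIs, at least 3.33-fold), Gfpt1 (4.00), the interferon-induced Rtp4 (3.79), Ifi44l (3.53) and Ifi202b (3.11), Mir22hg (3.19), Id3 (2.78) and H2-Q4 (2.75), with Stk17b (-1.38), Mdh2 (-1.33), Reep5 (-1.08) and Ckb the lowest.

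Type 1 cells numbered 7 in the vehicle, too few for a comparison, so the values stand side by side with those of 21 TAK-931 cells. Summed interferon gamma-induced genes held 136.8 and 1068 CPM, type I interferon-stimulated genes 205.2 and 575.6 CPM, MHC class I genes 7577 and 12515 CPM and MHC class II genes 27664 and 33645 CPM. Per cell the interferon gamma list had a median of 0.429 and a highest value of 3.41 UMIs per 10000 in the vehicle, and a median of 5.55 in the TAK-931 cells.

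Type 1 and type 2 cells were then set against each other within the TAK-931 library (21 and 38 cells without the Siglech-positive ones). Type 1 cells were higher in 14 of 15 type 1 identity and 18 of 23 G2/M genes, the latter with a median of 1.63 that fell to 0.20 without the deepest cells. They were lower in 5 of 6 chemokine receptors and in 7 of 11 type I and 11 of 16 interferon gamma list genes. Beside the type genes of the rule, 192 of 2823 genes were higher in type 1 (6.80%) and 284 lower (10.1%), and by the list limit 12.1% and 14.0% of 6907 genes. The types were chosen on 3 of these genes, so the differences are a description.

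Of the type 1 identity list, 14 of 15 genes were higher in type 1 cells with a median of 3.57. Irf8 stood at 1211 against 202 CPM in type 2 cells, Id2 at 1982 against 475, Cadm1, an adhesion molecule, at 237 against 28.9, and Wdfy4, which cross-presentation needs, at 305 against 25.6. Batf3 gave 3.18 (1.70 to 5.13), Cd24a 4.57 and Rab7b 4.05. Tlr3, a sensor of double-stranded RNA, had 17 UMIs in type 1 and 0 in type 2 cells, at least 5.86-fold higher. The vehicle cells ran the same way for Irf8 (615.7 against 83.4 CPM), Wdfy4 (350.6 against 41.7), Cadm1 (27 UMIs against 0) and Rab7b (37 UMIs against 0). Of the type 2 identity list, 11 of 14 genes were lower in type 1 cells and 0 higher (median -1.81). Clec10a stood at 11.6 against 351.1 CPM (-4.92), and Irf4, Sirpa, Itgam and Zeb2 at -1.50, -1.41, -1.73 and -1.90. A type 1 cell with 38223 UMIs held 79% to 92% of the type 1 UMIs of these 4 genes, and in the vehicle they had 0 UMIs in type 1 cells. Klf4, Clec12a and Notch2 did not reach 2-fold (-0.04, 0.43 and 0.79).

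By rule the genes highest in type 1 cells, together with Cd24a, Rab7b and Wdfy4, were Dpy19l3 (at least 17.2-fold), Hepacam2 (4.27), Tbc1d8 (4.05), Lrrk2 (3.86), Sgms1 (3.75), Ppt1 (3.71) and Ube2c (3.37). The lowest, together with Clec10a, were Fcgr1, the high-affinity IgG receptor (107 CPM in type 2 cells against 0, at least 21.6-fold lower), Tmem176b (-5.60), Dmkn (-5.51), Ms4a6d (-5.33), Tmem176a (-5.25), S100a4 (56.4 against 2115 CPM, -5.23), Clec4b1 (-5.20), Id3 (-5.11) and Ms4a6b (-4.87). In the vehicle S100a4 stood at 8.55 against 2211 CPM and Ms4a6d, Tmem176b and Clec4b1 at 0 against 42, 51 and 13 UMIs, whereas Ube2c had 1 UMI in each type.

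Receptors and signals set the types apart as well. Uptake receptors had 3 of 16 higher in type 1 and 10 lower, with Ly75 (3.69), which takes up antigen for cross-presentation, and the scavenger receptor Cd36 (2.53) among the higher. Of 6 chemokine receptors 5 were lower and 0 higher. Ccr7 stood at 51.4 CPM in type 1 against 292 in type 2 cells (-2.50) and Ccr2 at 58.05 against 279 (-2.27). Cytokines had 4 of 8 lower and 0 higher, among them Il1b at 104.5 against 563 CPM (-2.43, -2.84 to -2.04) and Tnf at -2.33. Of the interferon-induced genes, 7 of 11 of the type I list (median -1.54) and 11 of 16 of the interferon gamma list (-1.23) were lower in type 1 cells and 0 higher. Isg15 stood at 82.9 against 330 CPM (-1.99, -2.47 to -1.54), Iigp1 at -2.31 and Irgm1 at -1.23, whereas Oasl1 (0.63) leaned the other way. MHC class I genes had 2 of 20 higher, Tap2 (1.12) and Psmb9 (1.16), with a median of 0.02, and MHC class II genes had only the lysosomal Ctss (-1.68) and Ifi30 (-1.56) past 2-fold. Without the type 1 cell named above the interferon gamma median was -1.37 and the MHC class I median -0.048. Over the alternatives the type I median ran from -1.93 to -0.91 and the interferon gamma median from -1.84 to -0.99. The value of -0.91 was that without the deepest cells.

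**Figure D4:**
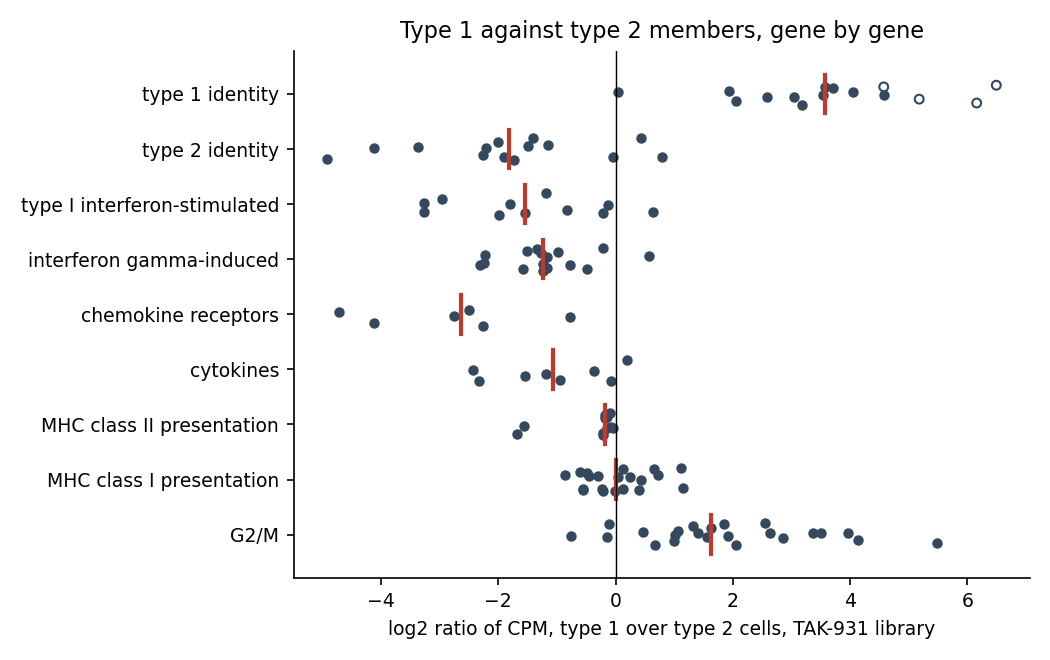
Log2 ratio of CPM, 21 type 1 over 38 type 2 TAK-931 cells without Siglech-positive cells, for each measured gene (points) of 9 lists, with list medians as bars and open points for genes at 0 in type 2 cells, taken with 0.5 UMI added. Type 1 identity and G2/M genes lie mostly to the right, chemokine receptors and interferon-induced genes mostly to the left, and both MHC lists near 0.

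The G2/M list ran higher in the TAK-931 library and in type 1 cells, but these differences rested on few and deep cells and shrank without them. G2/M genes had 14 of 25 higher and 1 lower over all cells (median 1.33), and 13 of 24 and 1 without the Siglech-positive cells (1.51). Of these genes 8 and 7 were at 0 in the vehicle, and at their bound 7 were higher in each case, with medians of 0.40 and 0.57. The summed level went from 886.9 to 1544 CPM (0.80, 0.59 to 1.01), while per cell the median went from 5.86 to 6.83 UMIs per 10000 and the highest from 31.8 to 73.0. S phase genes had 1 of 25 higher and 2 lower over all cells and 2 of 23 and 3 without the Siglech-positive cells (median -0.04), and the 4 measured genes of the CDC7 complex none past 2-fold, with Dbf4, the activator of CDC7, at -0.55 and Mcm2, a CDC7 substrate, at 0.78. Ube2c, a ubiquitin-conjugating enzyme of mitosis, had 2 UMIs in 2 vehicle cells and 220 UMIs in 19 TAK-931 cells (4.31, 2.44 to 7.37). Mki67 went from 16.9 to 47.2 CPM (1.48, 0.05 to 3.40), with 75% of its 4 vehicle UMIs in 1 cell.

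Cells with at least 5 UMIs of Mki67, Top2a and Ube2c together were 2 of 18 in the vehicle (11.1%, 1.38 to 34.7) and 16 of 65 in the TAK-931 library (24.6%, 14.8 to 36.9). They were 9 of 21 TAK-931 type 1 cells (42.9%, 21.8 to 66.0), 7 of 38 type 2 cells (18.4%, 7.74 to 34.3) and 0 of 14 Siglech-positive cells, which allows a share of up to 23.2%. The 16 TAK-931 cells had a median of 30578 UMIs and the other 49 had 15169. In cells thinned to 5000 UMIs, with a limit of 2, the shares were 11.1% (1.38 to 34.7) and 18.5% (9.92 to 30.0). Thinned in the same way, the TAK-931 shares were 33.3% (14.6 to 57.0) in type 1 and 15.8% (6.02 to 31.3) in type 2 cells. None of the 7 vehicle type 1 cells then reached the limit. Without cells of over 2 times the median UMIs the G2/M list median was 0.34. Type 1 cells exceeded type 2 cells in 18 of 23 G2/M genes (median 1.63), with Ube2c at 331.7 against 32.1 CPM and Ccnb2 at 5.47, but Mki67 at -0.14, and that median was 0.20 without the deepest cells. In macrophages the G2/M list had 24 of 40 genes lower and 0 higher (median -1.14) and 6.57% of TAK-931 cells against 11.5% of vehicle cells reached 5 UMIs. The p53 target list had 4 of 10 higher and 0 lower over all cells (median 0.74, or 0.38 and 2 higher at the bounds), and 5 of 10 without the Siglech-positive cells (0.88, or 0.37 and 3 higher at the bounds), with Mdm2 at 1.04 (0.22 to 1.98) and Cdkn1a at 0.31 (-0.03 to 0.67).

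**Figure D5:**
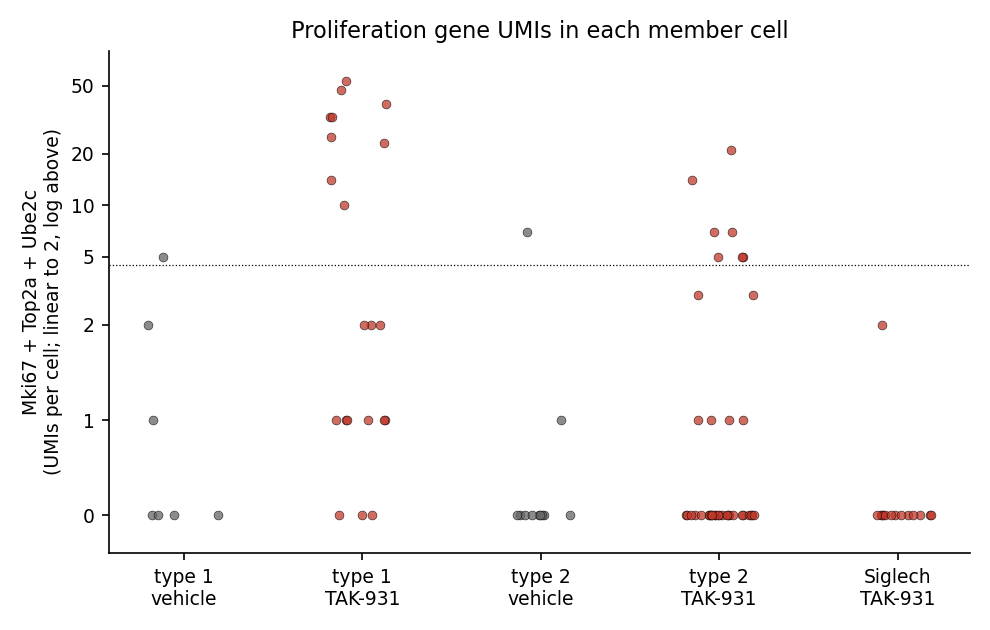
UMIs of Mki67, Top2a and Ube2c together in each dendritic cell, by type and library, with Siglech-positive cells apart, the axis linear up to 2 and logarithmic above, and a dotted line under the limit of 5. The TAK-931 type 1 cells include 9 cells at 10 UMIs or more, whereas most cells of the other groups lie at 0 or 1.

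Markers of other cells moved with these results. Macrophage list genes took 0 to 8 UMIs per vehicle cell (median 2) and 1 to 25 per TAK-931 cell (median 7), 194.3 against 387.8 CPM without the Siglech-positive cells, with 4 of 5 measured genes higher and 0 lower. Of these 5 genes 1 was at 0 in the vehicle, and at its bound 3 were higher. Apoe, a lipid carrier abundant in macrophages, had 2 UMIs in 2 vehicle cells and 177 UMIs in 56 of 65 TAK-931 cells, and 561 of 676 TAK-931 T cells also had a UMI of it. Monocyte genes took 1 to 46 UMIs (median 10) and 2 to 131 (median 43), with Ly6c2 from 38.0 to 243 CPM and Plac8 from 883 to 1984. J558 genes went the other way, from 1330 to 278.1 CPM, with 4 of 4 measured genes lower. T cell list genes were at 0 in all vehicle cells and had 134 UMIs over all TAK-931 cells, or 49 without the Siglech-positive cells, of which 53.1% lay in 1 cell. Fibroblast genes were at 0 in the vehicle as well, and B cell and neutrophil genes had 2 and 3 UMIs. In the TAK-931 cells 1 type 1 cell held 96.3% of 214 NK list UMIs, 1 cell held 80% of 100 fibroblast UMIs and 1 cell 89.2% of 37 B cell UMIs. With free RNA subtracted over all cells, Apoe and Ccl8 turned to -4.32 and -2.65, and the chemokine and G2/M medians were 0.84 and 0.94. The part of the markers of other cells in the results above was not tested.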

How the data were processed

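Droplet single-cell libraries (10x 3′ chemistry) were made by the authors from 1 vehicle and 1 TAK-931 allograft. The deposited matrices hold raw UMI counts per gene and barcode, written by Cell Ranger 6.0.0 by the authors with no normalization. The submitters' processing notes name mm10 and the methods name a human build, and the 32285 features carry mouse identifiers.

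Cells, members and types followed the limits in the report. The members and gene lists were chosen with earlier results of these data known. UMIs were summed per group and library and scaled to CPM. Sums have exact Poisson intervals, ratios exact conditional binomial intervals, shares exact Clopper-Pearson and their differences Newcombe intervals. A gene at 0 was ranked with 0.5 UMI added to both sums and printed as a bound from 3 counts. Genes were named from the fixed lists, past 2-fold with most UMIs or most abundant, and as the 10 highest and 10 lowest ratios among genes with at least 50 UMIs where higher, under 25% of them in 1 cell, and a CPM in that library at or above the level of its other kept cells. Some list genes were counted in their lists but are not reported here by name. Mitochondrial, ribosomal, haemoglobin, immunoglobulin and unnamed genes were left out there. Comparators were T cells (at least 3 Cd3 UMIs) and macrophages. Scrublet called 12 of 4565 and 0 of 6558 barcodes, too few to have worked, so doublets were not removed. With 1 library per group no test across samples was possible. Python 3.11.15, numpy 2.4.6, scipy 1.17.1, pandas 2.3.3, scanpy 1.11.5 and matplotlib 3.10.9 were used, and the steps were tested on simulated data. Alternatives covered the cell, marker and gene limits, thinning, doublet scores, scaling, mean CPM per cell, free RNA and the denominator. Leaving out Siglech-positive cells, barcodes in both libraries or single cells (the richest in a gene or list), the type 2 comparison, and the alternatives for type 1 over type 2 were chosen after seeing the data.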

Additional observations from a re-analysis of the deposited data

Results flagged for a closer look

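G2/M genes moved in opposite directions in dendritic cells and macrophages, with a median log2 ratio of CPM, TAK-931 over vehicle, of 1.51 over 24 genes in dendritic cells without the Siglech-positive ones and -1.14 over 40 genes in macrophages. Of the 24 genes, 7 were at 0 in the vehicle, and at their bound the median was 0.57. The summed level of the list gave 0.80 in the dendritic cells. The difference between these medians was not tested, as each rests on 1 library per group. In the dendritic cells the median over all members was 0.34 when cells of over 2 times their median UMIs were left out, and the part of cell depth in the difference was not tested.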

How the results depend on the processing

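No paired analysis was possible because each group had 1 library. Of 260 summary values compared across alternatives, 197 stayed on the same side and within the limits set for a change, as did 1546 of 1601 values of 85 genes. The cause of each change was not tested. The share difference of 1.74 points was 1.14 with C1q genes under 2 UMIs, 0.915 with the rule applied after thinning (8 and 40 cells), 0.810 over all barcodes, -1.95 over cells low in Trap1a and -2.36 there without Siglech-positive cells. The 422 higher and 119 lower genes became 932 and 363 of 6282 with a minimum of 20 UMIs and 90 and 11 of 1142 with a minimum of 200. Higher genes were 211 of 1917 in type 2 cells, a share of 11.0% against 11.1% of 3803 over all cells. Lower genes were 74 of the same 3803 with median-ratio scaling, which took out a median log2 ratio of -0.14 and so raised every ratio by that size.

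The MHC class I median of 1.02 was 1.16 with median-ratio scaling and 0.92 in type 2 cells. The MHC class II median of 0.08 was 0.18 with at least 5 marker UMIs, 0.12 with at least 20 H2-Aa UMIs, 0.036 with C1q under 2, 0.12 with no Cd3 or Trap1a UMI, -0.044 without cells of over 2 times the median UMIs, -0.037 with mean CPM per cell, 0.22 with median-ratio scaling, 0.23 without Siglech-positive cells and 0.12 in type 2 cells, so its sign was not stable. The type I interferon median of 2.21 was 1.81 with at least 5 marker UMIs. The interferon gamma median of 1.63 was 0.79 in type 2 cells and 1.92 without the vehicle cell richest in that list. The chemokine median of 1.18 was 1.70 with at least 5 marker UMIs, 0.85 without the deepest cells, 0.84 with free RNA subtracted, 1.47 with a list minimum of 50 UMIs, 1.38 without Siglech-positive cells, 0.38 in type 2 cells, 2.21 without that vehicle cell and 0.69 without 3 TAK-931 cells. The G2/M median of 1.33 was 1.61 with no Cd3 or Trap1a UMI, 0.34 without the deepest cells, 1.05 with mean CPM per cell, 0.94 with free RNA subtracted, 0.95 and 0.40 with list minimums of 1 and 50 UMIs and 1.07 in type 2 cells.

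For type 1 over type 2, the 192 higher genes were 120 without the deepest cells, and 492 and 35 with minimums of 20 and 200 UMIs, where the 284 lower genes were 613 and 73. The number of genes tested moved with each of these settings, so these counts are not read as more or fewer differences. The type I interferon median of -1.54 was -1.93 with C1q under 2, -1.28 with no Cd3 or Trap1a UMI, -0.91 without the deepest cells and -1.19 with a list minimum of 50. The interferon gamma median of -1.23 was -1.84 with at least 5 marker UMIs, -0.99 with C1q under 2, -1.42 without the deepest cells and -1.37 without the type 1 cell rich in macrophage genes. The MHC class I median of 0.02 was -0.14, -0.21, -0.10, -0.34, 0.13 and -0.048 with at least 5 marker UMIs, C1q under 2, no Cd3 or Trap1a UMI, without the deepest cells, with a list minimum of 50 and without that type 1 cell. The G2/M median of 1.63 was 1.90, 0.76, 0.20 and 1.07 with at least 5 marker UMIs, C1q under 2, without the deepest cells and with a list minimum of 50.

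Genes that changed sign from the value over all cells were Apoe (-4.32), Ccl8 (-2.65) and Iglc3 (2.69) with free RNA subtracted, Bcl11a (-0.18), Ccl4 (-0.22) and Ppt1 (0.83) in type 2 cells, Ccr9 (-0.47) without Siglech-positive cells, and Fn1 without the deepest cells (-0.24) or the 3 TAK-931 cells (-0.39). Weighting the types equally was not run, since the vehicle held 7 type 1 cells. With 18 vehicle cells, a sum of 0 allows a level of up to 12.7 CPM (3 counts), by counting error alone.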
